A study of Callithrix jacchus with 39 samples.

Results

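In the common marmoset (Callithrix jacchus), 653 genomic regions carried overlapping H3K27ac peaks of both replicates in only 1 tissue, and H3K4me3 only in other tissues. They were chosen from a catalogue of 65161 regions, built from H3K27ac peaks that overlapped by at least 1 bp between the replicates of a tissue and were then merged over 8 tissues. Of the catalogue, 38212 regions counted as acetylated in exactly 1 tissue, called the home tissue here. Single libraries of other tissues could still have an H3K27ac peak on them. The 653 regions, 1.71% of those, overlapped no H3K4me3 peak of the home tissue but at least 1 H3K4me3 peak of another tissue, and are called mark-discordant regions. The calls of both marks therefore chose them, so their restriction to 1 tissue and their lack of H3K4me3 at home are descriptions.

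H3K27ac is an acetylation of histone H3 found at active promoters and active enhancers, and H3K4me3 is a methylation of the same histone that sits mainly around the start sites of genes. A region with both marks usually resembles an active promoter, and a region with H3K27ac alone an active enhancer. Promoters can carry H3K4me3 with little H3K27ac, and some DNA elements are known to serve as a promoter in one cell type and as an enhancer in another. Tissues are mixtures of cell types, so a peak map averages over them.

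Both marks were mapped by ChIP-seq in 8 tissues: stomach, colon, liver, pancreas, kidney, spleen, heart and skeletal muscle. Every tissue had 2 numbered replicates of each mark, except heart with 1 H3K4me3 library, giving 16 H3K27ac and 15 H3K4me3 peak lists. The labels give no genotype, treatment, age, sex or animal, and do not say whether replicates are separate animals, so p-values measure the spread between tissues as sampled here. Each home tissue is set against largely the same libraries of the other tissues, so the tissue values of a test are not independent. The tissue labels were not checked against marker genes, because no gene annotation of the lists' genome build, calJac3, was used here, and no region was assigned to a gene or shown as sequence. H3K27ac lists held 24590 to 51554 peaks and H3K4me3 lists 16386 to 24424. Read depth is unknown, and the lack of a peak means only that none was called.

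Spleen was the home of most mark-discordant regions and stomach of fewest. Spleen had 140, liver 100, pancreas 89, skeletal muscle 84, heart 83, colon 64, kidney 52 and stomach 41, a mean of 81.6 ± 30.8 (SD, n = 8 tissues). The order was different when the number was taken as a share of all regions acetylated in that tissue alone. Heart then led with 8.93% of 929 regions, followed by spleen with 3.17% of 4418. Pancreas (2.76%), stomach (2.09%) and kidney (1.95%) came next, and skeletal muscle (1.12%), colon (0.957%) and liver (0.925%) were lowest. Among the regions of 1 tissue that carried H3K4me3 somewhere else, the share that lacked it at home was 24.9 ± 10.4% (SD, n = 8). It reached 42.0% in spleen and 38.4% in heart, against 13.6% in colon and 14.5% in liver.

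**Figure D1:**
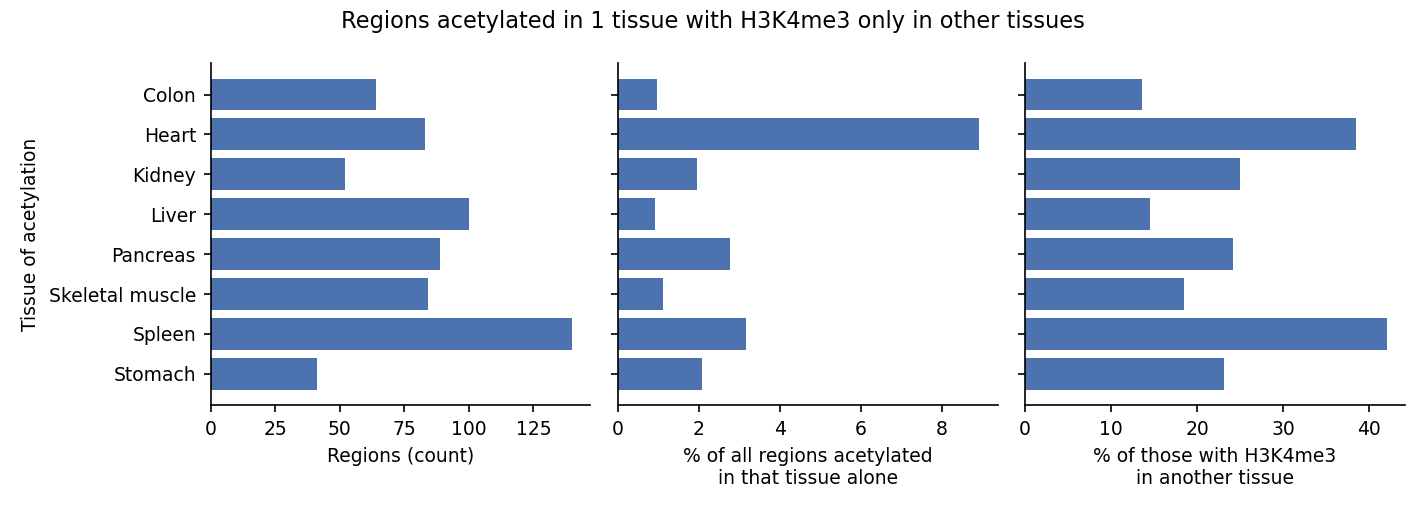
Horizontal bars give, for each tissue of acetylation, the number of mark-discordant regions (left), their percentage of all regions acetylated in that tissue alone (middle) and their percentage of such regions with H3K4me3 in another tissue (right). Spleen leads by count with 140 regions, and heart leads the middle panel with 8.93%.

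These counts moved with the H3K4me3 lists of the home tissue. The lists of the 2 tissues with the highest shares were short or single: 18231 peaks in heart, and 16946 and 18658 peaks in spleen. Replicate 1 of pancreas (16386 peaks) and of skeletal muscle (16850) was shorter still, beside shares of 2.76% and 1.12%, and replicate 2 of these tissues held 22107 and 24424. With only replicate 1 of the home tissue's H3K4me3 taken into account, skeletal muscle would have had 346 such regions, against 87 with replicate 2 alone. In pancreas the numbers were 211 and 91, in liver 215 and 110, in colon 137 and 74, and in spleen 198 and 162. Kidney (66 and 69) and stomach (65 and 54) differed least between replicates. Among the 7 tissues with 2 H3K4me3 libraries, the share judged from 1 library was highest in pancreas replicate 1, at 6.55% of 3220 single-tissue regions. Heart, with its single library, had 8.93% of 929. The part of the number of libraries in these shares was not tested.

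The mark-discordant regions were short stretches of moderate acetylation. Their median length was 681 bp (range 307 to 3913 bp), against 762 bp for the 32447 regions of 1 tissue without H3K4me3 in any library, called H3K4me3-free here. By home tissue, mark-discordant regions had the longer median in kidney (711.5 against 691 bp) and spleen (767 against 739 bp). They had the shorter one in every other tissue. The 2264 regions of 1 tissue with H3K4me3 both at home and elsewhere, called doubly marked here, had a median of 799.5 bp. Longer regions meet an overlap rule more easily, so length is given with no test. In colon the median fold enrichment of the strongest home H3K27ac peak, a value set by the authors' peak caller, was 7.07 in replicate 1 and 5.48 in replicate 2. In the rest of the tissues these medians lay between 4.79 (pancreas, replicate 2) and 6.06 (pancreas, replicate 1).

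No difference in strength of the acetylation at home was detected between mark-discordant and H3K4me3-free regions. Strength was the percentile of a region's strongest peak within its own list, averaged over replicates, so that lists of different scale could be set side by side. Its median over mark-discordant regions was 39.8 ± 3.61 and over H3K4me3-free regions 39.0 ± 5.27 (SD, n = 8 tissues). The difference of 0.82 ± 5.12 percentile points did not pass (p = 0.664 and, adjusted, 0.759, by an exact permutation over the 8 tissues). As in all tests below, the sign of each tissue's difference was flipped in every combination, two-sided, and p was adjusted over 8 comparisons. Mark-discordant regions were the higher in 6 tissues and the lower in 2. Heart stood at 36.6 against 29.1, and liver on the other side at 35.9 against 44.1. Of the 653 regions, 207 (31.7%) lay above the middle of their lists, where 38% of all single-tissue regions did.

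H3K4me3 on these regions was found most often in skeletal muscle and least often in heart and spleen. The 653 regions made 1217 pairs of a region and another tissue with H3K4me3. Skeletal muscle accounted for 255 pairs, colon for 212, liver for 187 and stomach for 185. Kidney had 142, pancreas 128, spleen 61 and heart, with its single library, 47. As a share of the mark-discordant regions of all other home tissues, these were 44.8% for skeletal muscle, 36.0% for colon, 33.8% for liver and 30.2% for stomach, then 23.6% for kidney, 22.7% for pancreas, 11.9% for spleen and 8.25% for heart. Skeletal muscle replicate 2 was also the longest H3K4me3 list, with 24424 peaks.

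Skeletal muscle H3K4me3 was the most frequent partner of regions acetylated in colon, heart, kidney, pancreas and spleen, and colon H3K4me3 of those acetylated in liver, skeletal muscle and stomach. Of the 83 heart regions, 56 (67.5%) had H3K4me3 in skeletal muscle, the other striated muscle of the series, and 41 (49.4%) in liver. In the opposite direction 9 of 84 skeletal muscle regions (10.7%) had H3K4me3 in heart. Of the 64 colon regions, 33 (51.6%) had H3K4me3 in skeletal muscle and 19 (29.7%) in stomach. Of the 41 stomach regions, 16 (39.0%) had it in colon and 15 each (36.6%) in liver and in skeletal muscle.

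**Figure D2:**
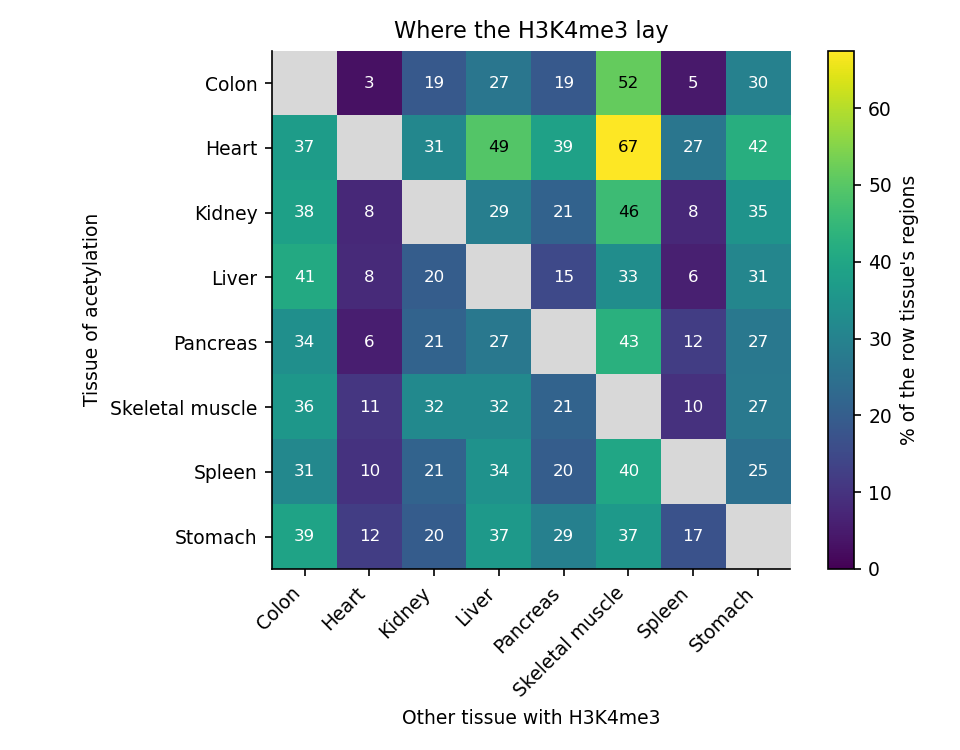
Colours and printed values give the percentage of the regions acetylated in the row tissue that overlapped H3K4me3 of the column tissue, with grey squares where both are the same tissue. The column of heart H3K4me3 stays at or below 12.2% and that of spleen H3K4me3 at or below 17.1% except for heart regions (26.5%), and the highest value, 67.5%, is that of heart regions with skeletal muscle H3K4me3.

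Most of this H3K4me3 was called in 1 library alone. In the 7 tissues with 2 H3K4me3 libraries, 263 of 1170 pairs (22.5%) had a peak in both libraries, 181 in replicate 1 alone and 726 in replicate 2 alone. Kidney (41.5%) and stomach (37.3%) had the highest shares in both libraries. Liver (25.1%), colon (20.3%), spleen (19.7%) and pancreas (12.5%) followed. In skeletal muscle 17 of 255 pairs (6.67%) were in both libraries and 215 in replicate 2 alone. Counted by region, 364 of the 653 (55.7%) were touched by a single H3K4me3 library in all, which for 95 of them was skeletal muscle replicate 2. H3K4me3 was present in every library of at least 1 other tissue in 188 regions (28.8%). In heart 1 peak was enough for this, and 161 regions had H3K4me3 in both libraries of at least 1 other tissue.

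The H3K4me3 peaks that touched mark-discordant regions recurred between replicates less often than H3K4me3 peaks at large. Of the peaks touching a mark-discordant region, 48.0 ± 10.4% were overlapped by the other replicate, against 84.8 ± 3.96% of all peaks of the same libraries (SD, n = 7 tissues). The difference was -36.8 ± 7.22 percentage points and below 0 in 7 of 7 tissues. The rule used these H3K4me3 calls and accepted a peak of any 1 library, so recurrence is a description with no test. With H3K4me3 required in every library of the other tissue the difference turned to 13.8 points, since that setting asks for a peak in both libraries. Skeletal muscle had the lowest recurrence, 29.2%, and kidney the highest, 61.6%. Against peaks of like fold enrichment the difference was -18.6 points, and without skeletal muscle replicate 2 it was -22.1 points in 6 tissues.

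They were also weak peaks, weaker than those on doubly marked regions. Their median percentile of fold enrichment within the list was 16.3 ± 1.65, against 31.0 ± 2.39 for the peaks of the same libraries on regions acetylated in another tissue that carried H3K4me3 there too (SD, n = 8 tissues). The difference was -14.7 ± 1.77 percentile points and negative in every one of the 8 tissues. These are the peaks by which the rule chose the regions, so their strength too is given with no test. In fold enrichment, the medians on mark-discordant regions lay between 5.94 (spleen replicate 2) and 6.71 (liver replicate 2), whereas the medians of whole lists lay between 9.16 and 13.2. Of 1505 such peaks, 102 (6.78%) exceeded the median of their list. The peaks were narrow, with median lengths of 337 to 478.5 bp per library, against 660 to 964 bp for all peaks of a library.

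**Figure D3:**
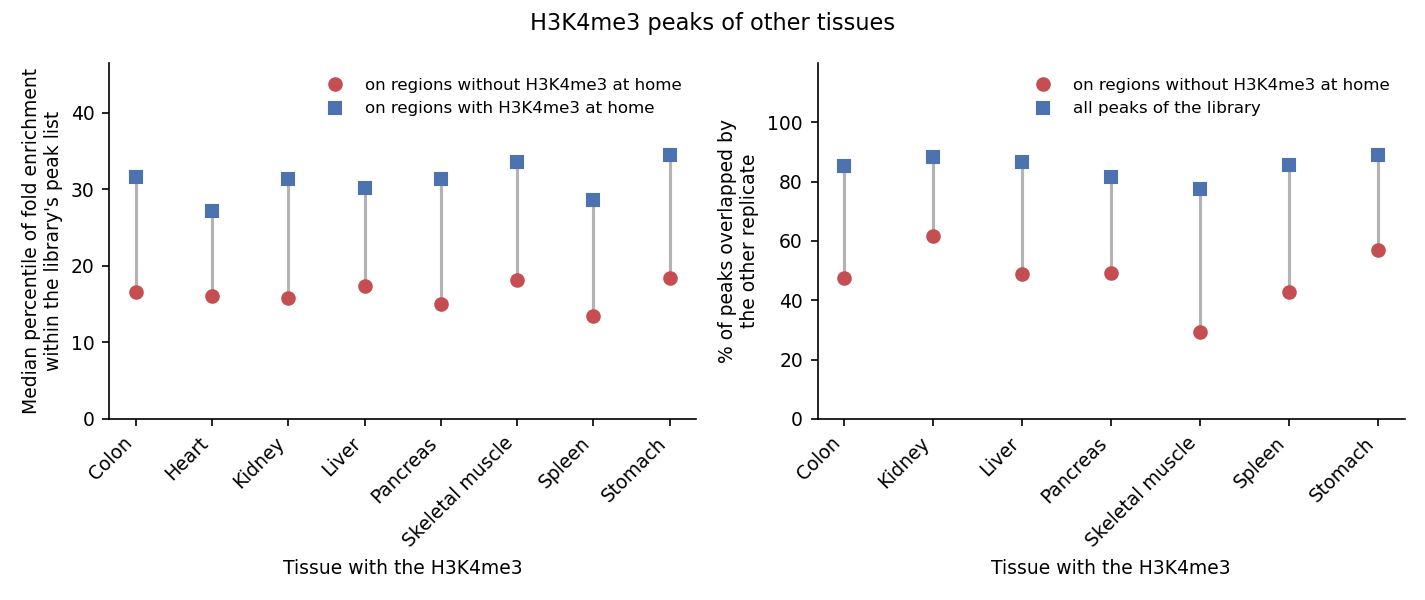
Left, the median percentile of fold enrichment of H3K4me3 peaks on regions acetylated in another tissue, for regions without (circles) and with (squares) H3K4me3 at home; right, the percentage of peaks overlapped by the other replicate, for peaks on mark-discordant regions (circles) and for all peaks (squares), per tissue with the H3K4me3 (mean of its libraries). Circles lie below squares in all 8 tissues on the left and in all 7 on the right.

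H3K4me3 on a mark-discordant region was mostly found in few other tissues. It lay in 1 other tissue for 406 regions (62.2%), in 2 for 109, in 3 for 53 and in 4 or more for 85 (13.0%), of which 14 had it in all 7 others. Doubly marked regions were spread to both ends, with 22.1% in 1 other tissue and 27.3% in all 7. The mean number of other tissues was 1.87 ± 0.45 for mark-discordant and 4.34 ± 0.43 for doubly marked regions (SD, n = 8 home tissues). The difference was -2.47 ± 0.33 and negative for all 8 home tissues. The rule itself used these H3K4me3 calls, so breadth is a description with no test. Heart regions had the highest mean, 2.93 other tissues, and heart was also highest among doubly marked regions, at 5.12. Of the 14 mark-discordant regions with H3K4me3 in all 7 others, heart held 12. Spleen held the other 2. For regions of any other home, all 7 others includes heart, whose single H3K4me3 library met 8.25% of them. The part of this in the heart count was not tested.

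The broadly methylated regions were the shorter ones and were covered most fully. Regions with H3K4me3 in 1 other tissue had a median length of 754.5 bp, of which a median of 46.0% was covered by H3K4me3, and those with it in 4 to 7 had a median of 554 bp and 93.4% covered. The home percentile of acetylation was 40.8 in the first group, 35.0 in regions with 2 to 3 other tissues and 44.5 in those with 4 to 7. More lists cover more of a region by construction, so these are descriptions. Heart, the home with the shortest median (600 bp), gave 27 of the 85 regions with 4 to 7 and 37 of the 406 with 1. The part of the home tissue in the difference in length was not tested.

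In most mark-discordant regions the H3K4me3 of the other tissues lay across the point of highest acetylation. A median of 55.7% of the region (quartiles 33.2 and 81.5%), or 370 bp, was covered. In 369 regions (56.5%) H3K4me3 of another tissue covered the H3K27ac summit of both home replicates, in 145 (22.2%) that of 1 replicate and in 139 (21.3%) neither. In doubly marked regions both summits were covered in 79.3%. The H3K4me3 covered 87 regions over their whole length.

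Few regions sat close to the limits of the overlap rule. The smallest overlaps with H3K4me3 of another tissue were 1, 2 and 4 bp, and 41 regions shared under 100 bp. Just outside, 71 H3K4me3-free regions ended within 100 bp of such a peak, 3 of them at a distance of 0 bp. On the side of the home tissue, the nearest H3K4me3 peaks lay 7, 9 and 11 bp from a mark-discordant region, and 23 regions had one within 100 bp. Just outside on that side, the smallest overlaps with home H3K4me3 among doubly marked regions were 4, 8 and 19 bp.

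H3K4me3 of the home tissue itself was often close by. It lay within 5 kb, without touching, of 304 mark-discordant regions (46.6%) and of 21.6% of all regions acetylated in 1 tissue. Within 1 kb the shares were 27.7% (181 regions) and 8.66%. Over tissues, 45.2 ± 11.2% of mark-discordant and 16.1 ± 2.23% of H3K4me3-free regions had home H3K4me3 within 5 kb (SD, n = 8). The difference of 29.1 ± 9.83 points was above 0 in 8 of 8 tissues. Colon (59.4%), skeletal muscle (56.0%) and liver (53.0%) had the highest shares. Spleen had 47.9%, heart 42.2%, pancreas 39.3% and stomach 39.0%. Kidney had the lowest share and the smallest difference, 9.45 points above the 15.6% of its H3K4me3-free regions. With regions left out where home H3K4me3 lay within 1 kb, the difference was 13.0 points. H3K4me3-free regions are by choice away from H3K4me3 of any tissue, and peaks of the mark coincide between tissues. Distance to the home peaks is therefore not fully separate from the rule and is a description with no test.

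**Figure D4:**
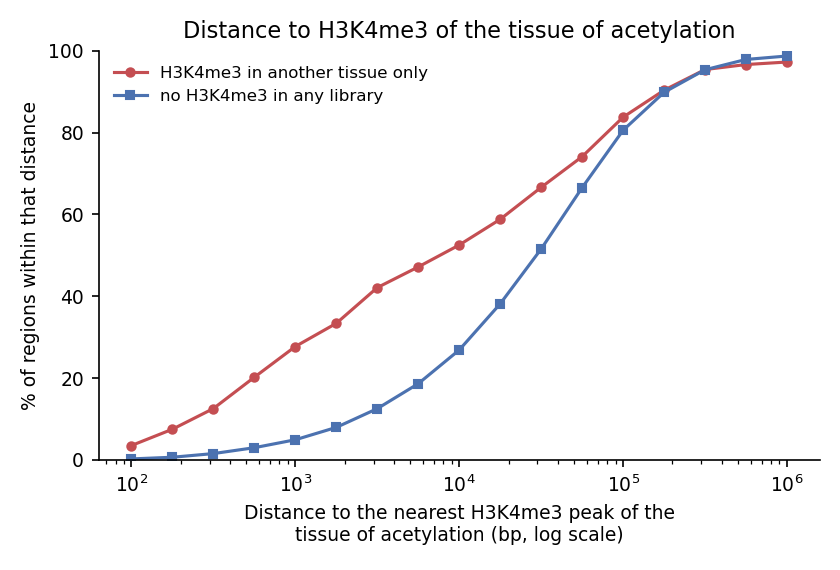
Cumulative percentage of regions (vertical axis) with an H3K4me3 peak of the home tissue within a given distance in bp (horizontal axis, log scale), for the 653 mark-discordant regions (circles) and the 32447 H3K4me3-free regions (squares). The curves stand at 27.7% and 4.93% at 1 kb and come together beyond 100 kb.

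In 87 mark-discordant regions (13.3%) the H3K4me3 stretch of another tissue ran on beyond the region and met H3K4me3 of the home tissue outside it. By tissue pair this was so in 165 of 1217 pairs (13.6%), from 8.51% for heart H3K4me3 to 21.3% for spleen H3K4me3. At the other end, 180 regions (27.6%) had no home H3K4me3 within 50 kb, or none on the same sequence, as had 37.0% of H3K4me3-free regions. Nearly every H3K4me3 stretch touched a single region, with 1227 of 1238 touching 1 and 11 touching 2 or more.

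No difference in neighbouring acetylation at home was detected. Another reproducible H3K27ac region of the home tissue lay within 5 kb of 355 mark-discordant regions (54.4%) and of 57.3% of all regions acetylated in 1 tissue. The means over tissues were 52.9 ± 13.2% and, for H3K4me3-free regions, 53.1 ± 7.69% (SD, n = 8), a difference of -0.15 ± 9.02 points (exact permutation p = 0.969 and adjusted p = 0.969). Colon (70.3% against 58.0%) and stomach (41.5% against 54.5%) lay on opposite sides. With regions left out where home H3K4me3 lay within 1 kb, mark-discordant regions had fewer such neighbours, by -9.85 points (exact permutation test, n = 8, adjusted p = 0.0179).

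Restriction of the acetylation to 1 tissue was seldom complete. The rule asked that no other tissue had peaks of both replicates that overlapped each other there, and peaks of single libraries could still lie on the region. An H3K27ac peak of at least 1 of the 14 libraries of other tissues overlapped 495 mark-discordant regions (75.8%), where it did so for 36.8% of all regions acetylated in 1 tissue. Of the regions, 203 were met by 1 such library, 146 by 2, 79 by 3, 39 by 4, 18 by 5, 8 by 6 and 2 by 7, and 158 by none. Over tissues, 74.4 ± 7.61% of mark-discordant and 39.0 ± 11.3% of H3K4me3-free regions were met (SD, n = 8). The difference was 35.4 ± 9.75 points and above 0 in 8 of 8 tissues. Spleen regions had the highest share, 87.9%, and kidney regions the lowest, 65.4%. Heart had the smallest difference, 72.3% against 58.5%. The 2 classes differ by the H3K4me3 calls of the rule, which also used the H3K27ac calls of other tissues. The difference is therefore not fully separate from the rule and is a description with no test.

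These H3K27ac peaks lay more often in the very tissues that carried the H3K4me3. On mark-discordant regions, 38.8 ± 4.66% of pairs with a tissue that had H3K4me3 there also had an H3K27ac peak in at least 1 of its libraries, against 15.9 ± 3.45% of pairs with a tissue that had none (SD, n = 8 home tissues). The difference was 22.9 ± 4.09 points and above 0 in 8 of 8 tissues. The pairs were split by H3K4me3 calls that the rule used, and the rule also screened the H3K27ac calls of other tissues. This difference is therefore not fully separate from the rule and is a description with no test. Stomach regions had the highest share with H3K4me3, 46.2%, and liver regions the lowest, 31.8%. Seen from the tissue with the H3K4me3, liver stood out with 123 of 187 pairs (65.8%) and 23.8% without H3K4me3. Heart had 51.1% and 16.1%, and spleen 49.2% and 13.3%. Skeletal muscle, with 21.6% and 8.60%, had the lowest share among pairs with H3K4me3, and colon (34.4% and 7.16%) the lowest without it. The H3K27ac lists of liver, with 46317 and 51554 peaks, were the longest, and without its replicate 2 the difference was 14.9 points. With H3K27ac and H3K4me3 compared only between libraries of the same replicate number it was 16.1 points.

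**Figure D5:**
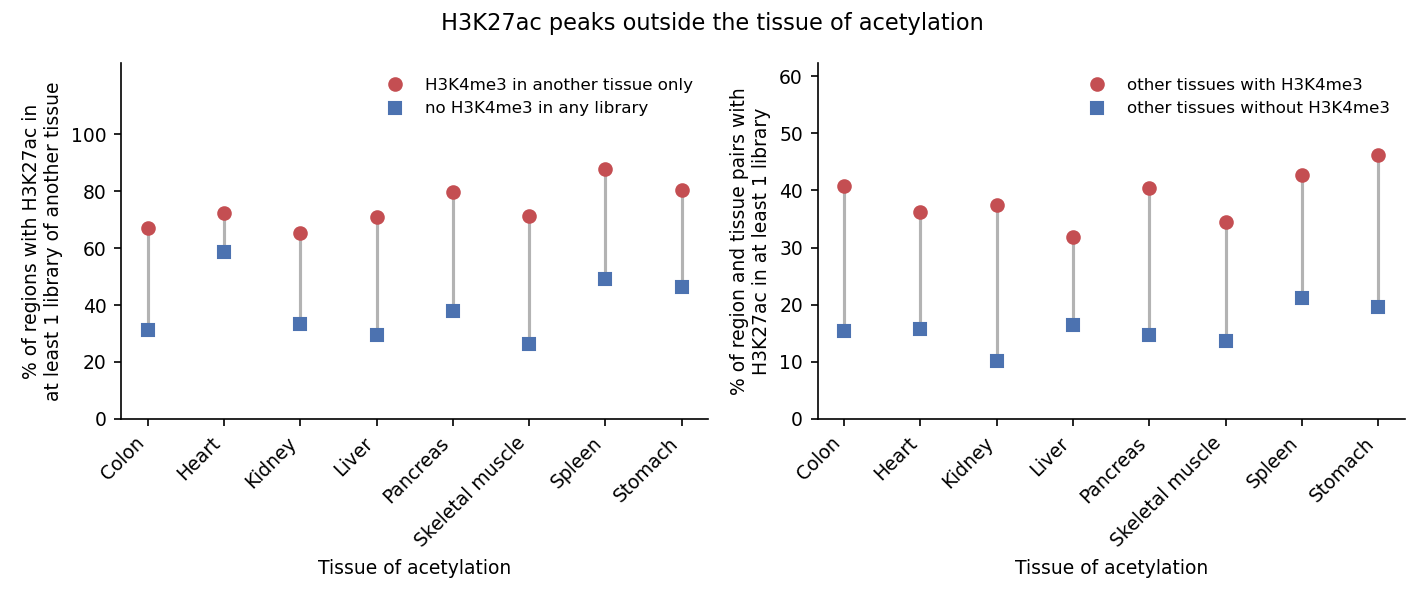
Left, the percentage of mark-discordant (circles) and H3K4me3-free (squares) regions with H3K27ac in at least 1 library of another tissue; right, for mark-discordant regions, the percentage of pairs of a region and another tissue with H3K27ac in at least 1 library, for other tissues with (circles) and without (squares) H3K4me3 there. Circles lie above squares in all 8 home tissues in both panels, with the smallest gap on the left in heart.

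Where the other tissue had H3K4me3, the stretch was seldom acetylated in both replicates of that tissue. The rule allowed such acetylation only outside the mark-discordant region, so this is a description. It was seen in 88 of 1217 pairs (7.23%), and an H3K27ac peak of at least 1 library lay somewhere on the stretch in 509 (41.8%). Among all H3K4me3 stretches of a tissue, 52.6% in skeletal muscle to 69.6% in liver carried H3K27ac found in both replicates.

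With H3K4me3 required in every library of the other tissue, 188 regions remained and 5 home tissues had at least 20 of them. There the differences were 43.5 points in H3K27ac elsewhere, 26.3 points in H3K27ac where H3K4me3 lay and 34.5 points in home H3K4me3 within 5 kb.

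Sequences outside the assembled chromosomes held 37 mark-discordant regions (5.67%), where they held 2.55% of all regions acetylated in 1 tissue and 2.31% of H3K4me3-free regions.

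The regions with the strongest acetylation per tissue, among those with H3K4me3 in every library of another tissue, show how the marks were laid out. All lie on calJac3, and fold enrichments are the authors' values. The highest home percentile of these was in spleen, at chr13:51244871-51246431 (1561 bp), where H3K27ac had fold enrichments of 10.1 and 10.4 in the replicates. H3K4me3 covered 300 bp of it in both stomach libraries (6.02 and 5.98) and 364 bp in colon replicate 2 (6.51), and met neither spleen summit. The nearest spleen H3K4me3 was 171.8 kb away. H3K27ac was called there in liver replicate 2 and pancreas replicate 1 as well.

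Both named skeletal muscle regions carried H3K4me3 in the single heart library and were covered by it almost or fully. At chr4:76966750-76967314 (565 bp), H3K27ac was 9.71 and 9.05 in skeletal muscle, and H3K4me3 was 12.6 in heart and in liver replicate 2, each over the whole region. No other library had H3K4me3 on this region, so in no tissue was it called in 2 libraries. At chr6:143927757-143928344 (588 bp), H3K27ac was 11.4 and 7.48 in skeletal muscle, and H3K4me3 was 13.1 in heart, 12.2 in liver replicate 2, 9.96 and 5.74 in kidney and 6.85 in spleen replicate 2. H3K27ac was called in replicate 2 alone of heart, kidney and liver on both regions. On the second, the peak of heart replicate 2 stood at percentile 94.6 of its list, close to the 94.8 of skeletal muscle replicate 1 and above the 70.9 of replicate 2, and heart replicate 1 had no peak. The nearest skeletal muscle H3K4me3 lay 210.8 kb and 67.2 kb away.

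A named region each of liver, pancreas and kidney carried H3K4me3 of colon, of stomach or of both in every library. At chr22:34725995-34726733 (739 bp), H3K27ac was 8.41 and 13.2 in liver, and H3K4me3 of colon (6.57 and 8.42) covered up to 710 bp, with liver H3K4me3 2.88 kb away. At chr4:107583954-107584663 (710 bp), H3K27ac stood at percentiles 67.0 and 61.1 in pancreas, with H3K4me3 in both libraries of colon (fold enrichments of 5.90 and 6.46) and of stomach, where it covered 364 and 344 bp. At chr6:62277881-62278572 (692 bp), H3K27ac was 7.40 and 4.65 in kidney, and H3K4me3 was 6.60 and 6.92 in colon, and in stomach it covered 549 and 474 bp. No H3K27ac was called in any library of another tissue on the kidney region, whose nearest kidney H3K4me3 lay 474.1 kb away.

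The leading pancreas and stomach regions, both on the X chromosome, lay beside H3K4me3 of their own tissue. At chrX:50859209-50860293 (1085 bp), H3K27ac was 10.8 and 5.56 in pancreas, colon H3K4me3 covered 94 and 168 bp, and pancreas H3K4me3 lay 489 bp away. At chrX:101310965-101311454 (490 bp), H3K27ac was 5.88 and 5.93 in stomach and the nearest stomach H3K4me3 was 272 bp away. H3K4me3 of colon was 7.33 and 17.9 there but covered 81 and 56 bp, whereas kidney replicate 2 (6.24) covered 350 bp and liver replicate 2 (18.4) 254 bp. The colon region at chr2:111987764-111988551 (788 bp) was likewise 670 bp from colon H3K4me3. It had H3K27ac of 9.22 and 6.45 in colon, and H3K27ac was also called in 7 libraries of other tissues, at most at 6.84, in liver replicate 1. Both skeletal muscle replicates were among these, at 4.07 over 59 bp and 4.47 over 300 bp. Their peaks did not overlap each other, so skeletal muscle did not count under the rule.

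On the remaining named regions H3K4me3 was weaker than the middle of its list in all but 1 library. The leading colon region, chr16:5410563-5411093, had H3K27ac of 7.68 and 7.78 and H3K4me3 of 7.03 and 6.38 in stomach. The leading heart region, chr7:2129180-2129760, had H3K27ac of 7.76 and 6.90 and H3K4me3 of 6.64 and 7.18 in kidney. The second heart region, chr5:80649520-80649960, had H3K27ac of 7.59 and 6.22 and H3K4me3 in 9 libraries of 6 tissues, highest in stomach replicate 1 (12.5, at percentile 56.1 of its list). The leading kidney region, chr7:4956329-4957449, had H3K27ac of 5.91 and 6.57 and H3K4me3 of 7.80 and 8.14 in colon. H3K27ac of pancreas replicate 1 stood at percentile 79.0 of its list there, above the 40.6 and 69.4 of kidney, and colon replicate 2 had a peak as well. The liver region at chr4:23595169-23596356 had stomach H3K4me3 of 6.11 and 6.16, the spleen region at chr3:38803937-38804863 had colon H3K4me3 of 5.40 and 6.92, and the stomach region at chr13:43331539-43332837 had heart H3K4me3 of 6.30 in the single heart library. On the stomach region, H3K27ac of liver replicate 2 stood at percentile 68.2 of its list, above the 31.1 and 59.0 of stomach.

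The 3 regions with H3K4me3 in the most libraries were all acetylated in heart. Heart regions can be met by 14 H3K4me3 libraries of other tissues, more than regions of any other home, since heart itself has 1. At chr12:584529-584961 (433 bp), H3K4me3 was called in all 14 libraries of the other tissues, with fold enrichments between 4.89 (spleen replicate 2) and 9.73 (liver replicate 1). H3K27ac there was 5.95 and 4.90 in heart and 3.16 in liver replicate 2, the only other library with a peak. Heart H3K4me3 was 18.0 kb away. At chr8:3266885-3267514 (630 bp), 13 libraries had H3K4me3, between 5.26 (skeletal muscle replicate 1) and 13.6 (stomach replicate 1), no other tissue had H3K27ac, and heart H3K4me3 lay 163 bp away. The third, of 680 bp, lay on a sequence outside the assembled chromosomes, with H3K4me3 in 13 libraries and H3K27ac in 6 libraries of other tissues. Each of the 3 rests on the lack of a peak in the single heart H3K4me3 library.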

How the data were processed

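Peak lists of 31 ChIP libraries were analysed. The 8 input samples are not analysed here. Per the submitters' processing notes, the tools included bedtools 2.26, MACS2 2.1.1.20160309, Bowtie 1.1.2 and SAMtools 1.3.1, with no role stated. Each deposited list belongs to 1 library, so replicates were not pooled, and peak names carry the build calJac3. The authors' deposited values per peak are a fold enrichment (a ratio), −log10 p (at least 5.09) and −log10 q (at least 3.04), beside positions and summits (other values, in bp), which were used as deposited. No source used here states how inputs entered the calling. Percentiles of fold enrichment rank each peak within its own list.

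Kept H3K27ac peaks were merged where they overlapped or touched. Tests were two-sided exact sign-flip permutation tests over tissues with at least 20 regions per class, adjusted by Benjamini-Hochberg over 8 comparisons. Of these, 3 (recurrence, strength and breadth of H3K4me3 elsewhere) rest on the calls that chose the regions, and are given as descriptions without p. Those in H3K27ac elsewhere, H3K27ac where H3K4me3 lies and home H3K4me3 close by keep their p but are not fully separate from the rule. Regions were named by 2 rules: the 2 strongest at home per tissue with H3K4me3 in every library of another tissue, and the 3 with most H3K4me3 libraries. The regions, tests and rules were chosen with earlier results of these data known. Python 3.11.15, numpy 2.4.6, scipy 1.17.1 and matplotlib 3.10.9 were used, and the code was tested on simulated data. Alternatives are given at the end.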

Additional observations from a re-analysis of the deposited data

Results flagged for a closer look

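Heart stood apart from the 7 other tissues in 2 of 10 sets of tissue values. Mark-discordant regions made up 8.93% of the regions acetylated in heart alone, where the next tissue, spleen, had 3.17%. The excess of mark-discordant over H3K4me3-free regions with H3K27ac in at least 1 library of another tissue was 13.8 points in heart, where the next lowest tissue had 32.1 points. Chance flags about 1 in 20 such sets. Heart had 1 H3K4me3 library and the shortest H3K27ac lists of the series, and the part of either in these values was not tested. Without heart the second difference was 38.5 points in 7 tissues.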

How the results depend on the processing

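Of 357 recomputed values, 325 kept their direction, their side of the threshold or, for the number of regions, a value within 1.5 times the original. With H3K4me3 required in every library of the other tissue, the number of regions fell from 653 to 188. In the 5 tissues left, H3K27ac elsewhere differed by 43.5 points, H3K27ac where H3K4me3 lies by 26.3 and home H3K4me3 close by by 34.5. Other descriptive differences were -2.02 tissues in breadth and -13.6 percentile points in strength of the H3K4me3 peaks. Recurrence then turned to 13.8 points, since that setting requires a peak in both libraries. The difference in home strength, which never passed, changed sign with the 20000 strongest peaks of each list (-0.75) and without heart (-0.15). That in neighbouring acetylation became 9.80 with the 20000 strongest peaks, 0.46 on assembled chromosomes alone and with an overlap of 50%, 0.54 with H3K4me3 in every library and 0.48 within 2 kb, none of which passed. It passed at -9.85 with no home H3K4me3 within 1 kb. Leaving out each of 31 libraries gave 559 to 906 regions, and differences of -0.10 to 2.15 in home strength, 28.3 to 38.5 in H3K27ac elsewhere, 14.9 to 25.7 where H3K4me3 lies, 27.8 to 31.7 in home H3K4me3, -1.80 to 1.89 in neighbours, -40.6 to -22.1 in recurrence, -16.3 to -10.4 in peak strength and -2.56 to -2.15 in breadth. With the replicate number as a block, home strength differed by 1.11 (exact permutation test, n = 8, adjusted p = 0.679) and H3K27ac where H3K4me3 lies by 16.1 points. Among 324 pairs with 1 library of each mark, 206 (63.6%) had the same replicate number, but the labels do not say that numbers mark animals. The matching for strength and length and the omission of heart were chosen after seeing the data, and matched for length the difference in H3K27ac elsewhere was 35.6. Depth is unknown, so a missing peak may be a missed one.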

Other observations

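The share of mark-discordant regions varied between chromosomes. They made up 1.71% of all regions acetylated in 1 tissue, but 3.29% of those on chromosome 22 (34 of 1033), 3.11% on chromosome 21, 3.06% on the X chromosome and 2.56% on chromosome 20. The lowest shares were 1.15% on chromosome 19 and 1.16% on chromosome 9. These shares are given with no test.

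Regions with both home summits under H3K4me3 of another tissue, and those with neither, each had a median home percentile of 40.5. The first had H3K4me3 in a mean of 2.20 other tissues and the second in 1.29. An H3K27ac peak in at least 1 library of another tissue met 79.4% of the first and 66.9% of the second. In the tissues with the H3K4me3 the shares of pairs with such a peak were 40.4% and 30.6%.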
